A study of Mus musculus with 6 samples.

Results

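The claudins Cldn1, Cldn3, Cldn4, Cldn5, Cldn6, Cldn7, Cldn10, Cldn11, Cldn12 and Cldn15 were described in whole embryonic mouse hearts. They are 10 of the 46983 genes listed in the deposited tables and 10 of the 35 listed genes named Cldn followed by a number. The list was built around Cldn3 with its difference between mutant and control hearts already known. The members were therefore selected on values of these same hearts, and their differences between groups are given as a description, with no p-value. RNA was sequenced from 3 mutant and 3 control hearts at embryonic day E13.5, each library from 1 heart, on a C57BL/6 x DBA/2 background. Mutant embryos (labelled TnnT2Cre;Wt1flox) carried the Tnnt2 Cre transgene and floxed Wt1 alleles. Control embryos are labelled wild type, and the study's methods give them the same floxed Wt1 alleles without Cre, so floxed Wt1 was shared by all 6 hearts. The cardiac troponin T promoter drives Cre in the myocardium, and the study also found its recombination in a part of the epicardium. Replicates carry the numbers 2, 3 and 5 (control) and 1, 5 and 10 (mutant), and the labels do not pair hearts across groups.

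Claudins are membrane proteins that form the strands of tight junctions, the contacts that seal the space between neighbouring epithelial or endothelial cells. Each spans the membrane several times, and its extracellular loops bind claudins of the adjacent cell. Some members tighten the barrier, among them Cldn1, Cldn3 and Cldn5, while others, such as Cldn10 and Cldn15, form pores for ions. In the developing heart, Cldn5 is known from endothelium, and the epicardium and the linings of vessels and chambers are the epithelium-like layers in which junctions form.

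The libraries held between 44244665 and 56373393 counts assigned to genes, and 26831 genes had a count in at least 1 heart. A low-count filter left 17473 genes for testing, among them 9 of the 10 claudins, and Cldn10 did not pass it. Wt1, the targeted gene, had 2251, 1891 and 879 counts in control replicates 2, 3 and 5, against 921, 1746 and 1796 in mutant replicates 1, 5 and 10. The groups overlapped for the gene-level count of Wt1, which therefore does not check the labels. FPKM is a count corrected for gene length and for the depth of the library, and it is the scale used here to compare levels between genes. Cardiomyocyte markers were abundant in every heart, with a summed level of 18624 to 21066 FPKM in controls and 20305 to 21038 FPKM in mutants. Of these 12 markers 9 were higher and 3 lower (median log2 fold change 0.09), and edgeR passed 0, as at an unadjusted p under 0.05 and by DESeq2. The smallest p-values belonged to the contractile and hormone genes Myh6, Nppa and Myh7, with log2 fold changes of -0.30, -0.42 and 0.32, and cardiac actin (Actc1) was most abundant. Control replicate 3 stood apart by hepatocyte transcripts, with 17429 counts of Alb, the albumin of liver cells and blood plasma, against 0 to 289 in the other 5 hearts. The 7 tested hepatocyte markers were all lower in mutants (median log2 fold change -3.24), and edgeR passed 0. At an unadjusted p under 0.05 there were 4 (5.73% of all genes tested), while DESeq2 gave no adjusted p for 6 of the 7. Alb, Apoa2 and Ttr, all plasma proteins made by liver, had the smallest p-values, and Afp, the fetal plasma protein, was most abundant, at 20620 counts in control replicate 3.

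In control hearts the claudins spanned a wide range of levels. Cldn12, a claudin that lacks the usual PDZ-binding end through which claudins attach to scaffold proteins, was highest at 15.8 ± 0.978 FPKM (SD, n = 3). Cldn5 followed at 9.58 ± 6.14 FPKM, Cldn11 at 3.82 ± 0.573 FPKM and Cldn15 at 1.73 ± 0.385 FPKM. Cldn7, Cldn3, Cldn6, Cldn1 and Cldn4 came next, with means from 0.797 to 1.28 FPKM, and Cldn10 was lowest at 0.0802 ± 0.0726 FPKM. The ranges of neighbours in this order over the control hearts overlapped, except that Cldn5 lay wholly above Cldn11, Cldn11 above Cldn15 and Cldn4 above Cldn10.

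In mutant hearts the order changed at Cldn3. Its place among the 10 mean levels was 6 in controls and 2 in mutants, where only Cldn12 was higher. Cldn12 lay above Cldn3 in every mutant heart, while the hearts overlapped between Cldn3 and Cldn5, between Cldn5 and Cldn15 and between Cldn15 and Cldn11. Of the summed FPKM of the 10 claudins, Cldn3 made up 2.55%, 2.94% and 2.83% in control replicates 2, 3 and 5. The share was 13.7%, 18.9% and 26.2% in mutant replicates 1, 5 and 10. The sum itself was 28.6 to 47.6 FPKM in controls and 36.5 to 47.5 FPKM in mutants, so the groups overlapped in the total. They were apart in the share of Cldn3, which carries the difference around which the list was built.

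**Figure D1:**
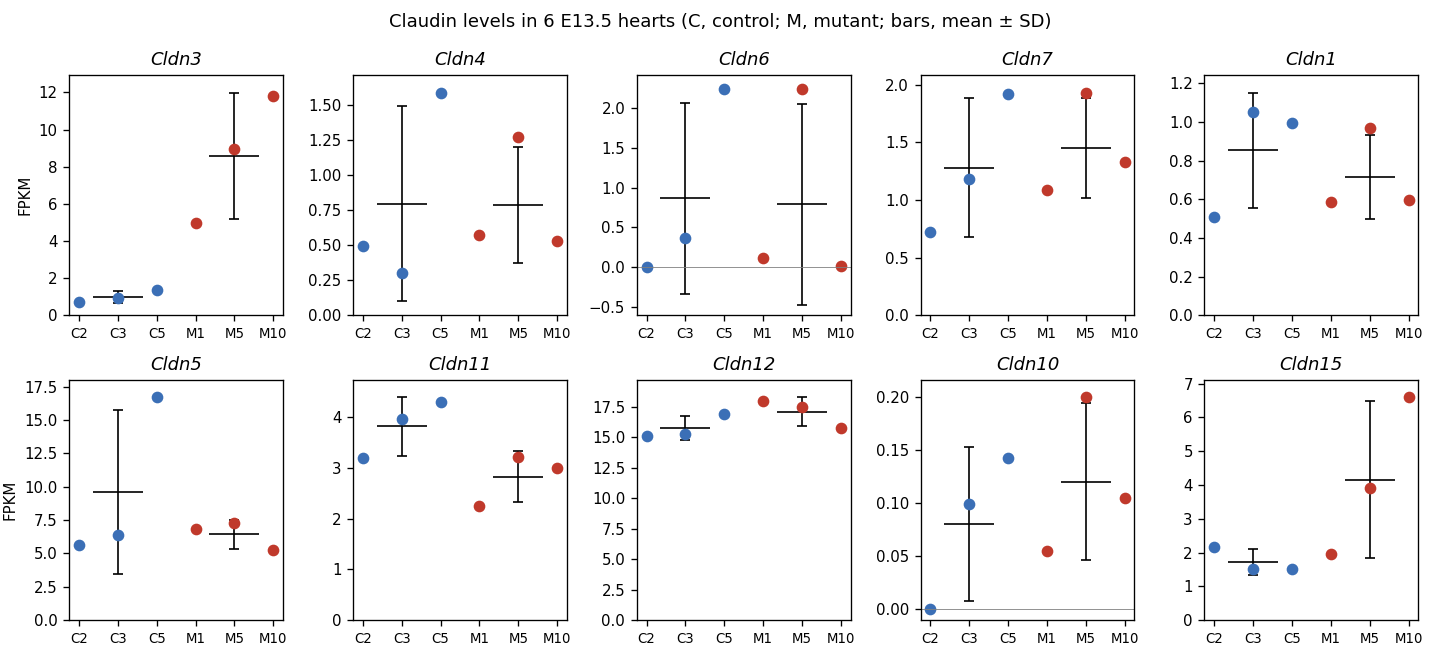
Level of each of the 10 claudins in FPKM (vertical axes, each with its own linear scale) in the 6 hearts (C, control; M, mutant, with the replicate number); horizontal marks and bars give the mean ± SD of 3 hearts. For Cldn3 the mutant hearts (4.99 to 11.8 FPKM) lie above the control hearts (0.730 to 1.35 FPKM), while the groups overlap for the other 9 claudins.

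Of the 9 claudins that passed the filter, 5 were higher and 4 lower in mutants, with a median log2 fold change of 0.01 against -0.001 over all genes tested. edgeR's quasi-likelihood test called 0% of the 17473 genes at an adjusted p under 0.05, with 1002 genes at an unadjusted p under 0.05 and a smallest adjusted p of 0.0991, and no claudin was called. DESeq2 called 0.66% of 20013 genes and 1 of the claudins, Cldn3. The groups did not overlap, with mutants higher, for 6.61% of the genes tested and for 1 claudin, Cldn3. They did not overlap, with mutants lower, for 4.59% of genes and for 0 claudins. Since Cldn3 was selected on this difference, nothing is read from these counts.

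**Figure D2:**
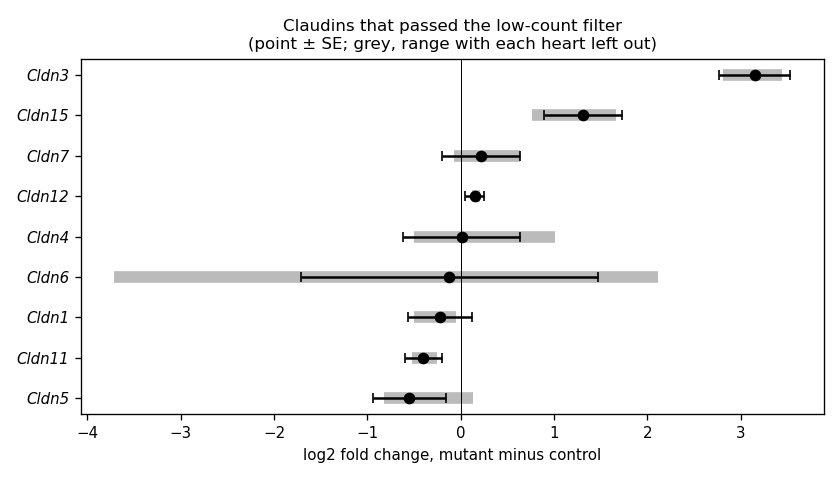
Log2 fold change (mutant minus control, horizontal axis) of the 9 claudins that passed the low-count filter; points with bars give the fit to all 6 hearts ± SE, and grey bars the range when each heart is left out in turn. Cldn3 stays between 2.81 and 3.44 and Cldn15 between 0.77 and 1.66, while the ranges of Cldn4, Cldn5, Cldn6 and Cldn7 cross 0.

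Cldn3, a barrier-forming claudin of many epithelia, differed most between the groups. It had 51, 65 and 75 counts in control replicates 2, 3 and 5, against 321, 589 and 788 in mutant replicates 1, 5 and 10. Per gene length this was 0.730, 0.916 and 1.35 FPKM in controls, and 4.99, 8.96 and 11.8 FPKM in mutants. Every mutant heart lay above every control heart, and within the mutants replicate 1 was lowest and replicate 10 highest. The mean was 0.997 ± 0.316 FPKM in controls and 8.58 ± 3.41 FPKM in mutants (SD, n = 3 each). In CPM (counts scaled to library size and composition by edgeR), mutants exceeded controls by a ratio of means of 8.84. edgeR fitted a log2 fold change of 3.15 (SE 0.38), which lay between 2.81 and 3.44 when each heart was left out in turn. Counting error alone gives a coefficient of variation of 4.20% at the mutants' mean count, and the mutant hearts varied by 43.0%. In bulk hearts, more cells of a type and more RNA per cell cannot be told apart.

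Cldn3 (ENSMUSG00000070473) lies on chromosome 5 of GRCm38, at chr5:134986214-134987472 on the plus strand, and its 1259 bases are all exonic in the annotation. Exons of Wbscr25, on the opposite strand, share 40 of these bases, which is 3.18%. Wbscr25 had 3 counts in control replicate 3 and 0 in the other 5 hearts. The strand setting of the counting is not given in the sources used here. The promoters of Cldn3, of its neighbour Cldn4 and of Cldn15, the claudin with the next largest difference, are shown because WT1 is a DNA-binding factor and these genes can be compared at their starts. Each sequence covers 250 bases before and 50 bases after the start in RefSeq (GRCm38.p6), and capitals mark a match to GTGGGAG, a core of the motif bound by WT1, on either strand.
Cldn3 (chr5:134985964-134986263, plus strand): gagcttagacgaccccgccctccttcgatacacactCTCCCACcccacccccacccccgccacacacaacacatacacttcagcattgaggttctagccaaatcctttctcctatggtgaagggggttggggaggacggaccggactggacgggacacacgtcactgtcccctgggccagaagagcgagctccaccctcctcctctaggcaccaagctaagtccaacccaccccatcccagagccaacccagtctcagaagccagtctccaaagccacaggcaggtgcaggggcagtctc
Cldn4 (chr5:134946885-134947184, minus strand): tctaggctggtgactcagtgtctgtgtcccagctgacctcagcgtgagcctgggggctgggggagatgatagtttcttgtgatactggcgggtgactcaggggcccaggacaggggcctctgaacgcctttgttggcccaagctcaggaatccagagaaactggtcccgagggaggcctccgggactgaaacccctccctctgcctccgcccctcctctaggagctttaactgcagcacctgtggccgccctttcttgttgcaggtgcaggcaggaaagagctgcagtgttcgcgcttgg
Cldn15 (chr5:136967619-136967918, plus strand): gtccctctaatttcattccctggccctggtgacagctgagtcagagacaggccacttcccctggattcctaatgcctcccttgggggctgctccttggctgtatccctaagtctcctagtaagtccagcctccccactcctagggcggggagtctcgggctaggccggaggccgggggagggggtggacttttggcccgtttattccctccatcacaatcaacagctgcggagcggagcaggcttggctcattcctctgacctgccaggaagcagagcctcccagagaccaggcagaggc

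The Cldn3 promoter held 1 match to GTGGGAG, on the minus strand, at 214 to 208 bases before the start. No match stood in the windows of Cldn4 and Cldn15, or in those of the other claudins of the list. Of 32851 promoters of 300 bases, 9.73% held this motif. The longer motif GCGGGGGCG, searched on both strands, stood in 2.91% of promoters and among the members in 1 of the 2 entries of Cldn7. The members had 14 promoter entries in all, with at least 1 for each gene. A match is a run of letters and says nothing of binding in these hearts. The Cldn3, Cldn4 and Cldn15 promoters had GC contents of 60.7%, 61.0% and 61.0%, above the median of 52.7% over all promoters.

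Cldn4, a close relative of Cldn3 that is known from the same epithelia, is the nearest claudin on the chromosome. It lies at chr5:134945119-134946934, 39.3 kb before Cldn3 and on the opposite strand. Cldn4 had 50, 31 and 128 counts in control replicates 2, 3 and 5, against 53, 120 and 51 in mutant replicates 1, 5 and 10. The groups overlapped, and replicate 5 was highest in both. Cldn4 had a log2 fold change of 0.01 (SE 0.63), which moved to 1.01 without control replicate 5 and to -0.50 without mutant replicate 5, so its direction rested on single hearts. The ratio of Cldn3 to Cldn4 FPKM was 1.47, 3.02 and 0.845 in controls and 8.74, 7.08 and 22.3 in mutants. In this ratio the groups were apart, but it carries the Cldn3 difference around which the list was built and is no separate result.

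Within 250 kb of Cldn3 the tables list 24 other genes, of which 14 passed the low-count filter. Of these, 4 were higher and 10 lower in mutants, with log2 fold changes from -0.76 to 0.40, and edgeR's quasi-likelihood test passed 0 at an adjusted p under 0.05. At an unadjusted p under 0.05 there were also 0, and DESeq2 called 0. Cldn13, a claudin 70.7 kb before Cldn3, was at the lower end, and Eln, the gene of elastin, at the upper end. For Abhd11os and Vps37d, 24.6 kb and 85.4 kb after Cldn3, every mutant heart lay below every control heart (2 of the 14, against 4.59% of all genes tested), with log2 fold changes of -0.42 (SE 0.28) and -0.28 (SE 0.17). The nearest gene that passed the filter, Abhd11, 21.7 kb after Cldn3, had a log2 fold change of -0.15 (SE 0.15). None of the 14 neighbours came near the log2 fold change of Cldn3.

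**Figure D3:**
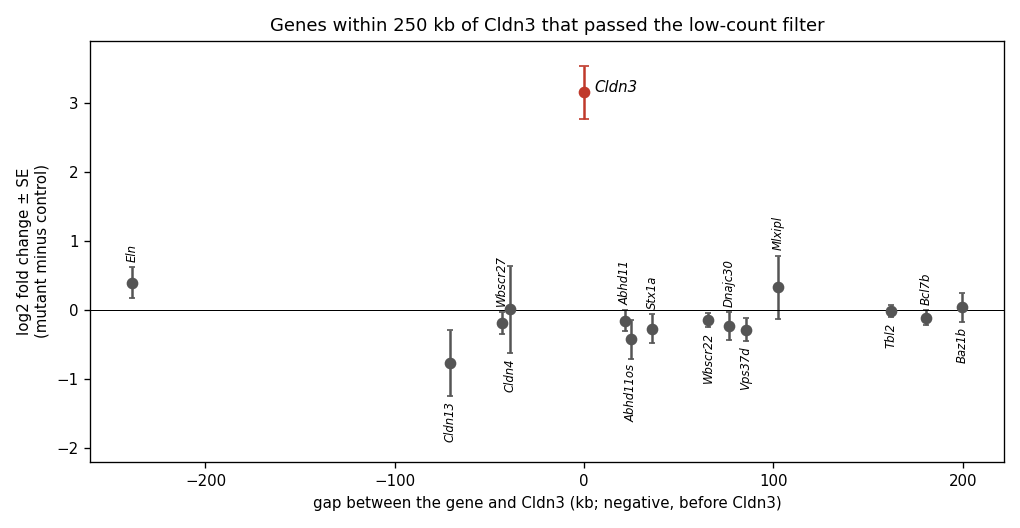
Log2 fold change ± SE (mutant minus control, vertical axis) of the 14 genes that passed the low-count filter within 250 kb of Cldn3, by the gap to Cldn3 in kb (horizontal axis, negative before Cldn3); Cldn3 itself is in red. Cldn3 stands at 3.15, and its neighbours lie between -0.76 and 0.40.

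Among the other claudins of epithelia, Cldn6 and Cldn7 shared the pattern of Cldn4. Cldn6 (chr17:23679249-23682446), a claudin of embryonic epithelia, had 0, 31 and 149 counts in control replicates 2, 3 and 5, against 9, 176 and 1 in mutant replicates 1, 5 and 10. A count of 0 in control replicate 2 allows a level of up to 0.0533 CPM (3 counts, counting error only). Replicate 5 was far above the other hearts of its group in both groups, and the groups overlapped. Its log2 fold change of -0.12 (SE 1.59) became 2.12 without control replicate 5 and -3.71 without mutant replicate 5. Cldn7 (chr11:69964779-69967885), found along the sides of many epithelial cells, had 33, 55 and 70 counts in controls and 46, 83 and 58 counts in mutants, again with replicate 5 highest in each. Its log2 fold change was 0.22 (SE 0.42), from -0.07 to 0.64 with each heart left out.

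The hearts of replicate 5 also had the most transcripts of foregut and airway epithelium. Of the 14 markers in that list with a count, 6 were highest in CPM in replicate 5 of both groups (42.9%), as were 6 of the 10 claudins, against 8.57% of all genes tested. Besides Cldn4, Cldn6 and Cldn7, these claudins were Cldn5, Cldn10 and Cldn11. The genes Nkx2-1, Foxa1, Foxa2, Shh and Epcam were chosen for naming after their values were seen. Nkx2-1, a transcription factor of lung and thyroid, had 0, 0 and 64 counts in control replicates 2, 3 and 5, against 8, 65 and 0 in mutant replicates 1, 5 and 10. Foxa2, a transcription factor of endoderm, had 0, 14 and 130 counts in controls and 8, 103 and 1 counts in mutants. Epcam, an adhesion protein of most epithelia, had 10, 37 and 267 counts in controls and 35, 264 and 29 counts in mutants. These genes marked the same hearts in which Cldn4, Cldn6 and Cldn7 were high. The summed level of the list was 9.54 to 16.3 FPKM in controls and 9.99 to 13.9 FPKM in mutants. Hhex gave 6.58 to 7.88 FPKM of it and Tg 1.66 to 2.63 FPKM. Scgb1a1, a defining marker of airway secretory cells, was at 0 in every heart. Of its 7 tested genes 2 were higher and 5 lower (median log2 fold change -0.27), and edgeR passed 0, as at an unadjusted p under 0.05 and by DESeq2. Tg, Hhex and Sftpb had the smallest p-values, with log2 fold changes of -0.27, 0.15 and -0.47, and Hhex was most abundant. The part of foregut tissue in the levels of Cldn4, Cldn6 and Cldn7 was not tested.

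Among mutants the order of hearts was another for Cldn3. Over control replicates 2, 3 and 5 Cldn3 rose (51, 65 and 75 counts), as Cldn6, Cldn7, Foxa2 and Epcam did. Cldn4 was instead lowest in control replicate 3. Mutant replicate 10, with the most Cldn3 (788 counts), had 0 counts of Nkx2-1, Foxa1 and Shh and 1 count of Foxa2, and its Epcam count of 29 lay within the range of control replicates 2 and 3. Hhex, of the same list, was highest in that heart at 13.1 CPM. The list summed to 9.99 FPKM there, against 9.54 and 9.95 FPKM in control replicates 2 and 3. Of the 9.99 FPKM, Hhex gave 7.65 and Tg 1.77 FPKM. Both varied little over the hearts (6.58 to 7.88 and 1.66 to 2.63 FPKM), so the sum says little of the other genes in the list. Without both hearts numbered 5, a setting added after the data were seen, the log2 fold change of Cldn3 was 3.41, and that of Cldn4 was 0.50 and of Cldn7 0.39. Cldn6 did not pass the filter in those 4 hearts.

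**Figure D4:**
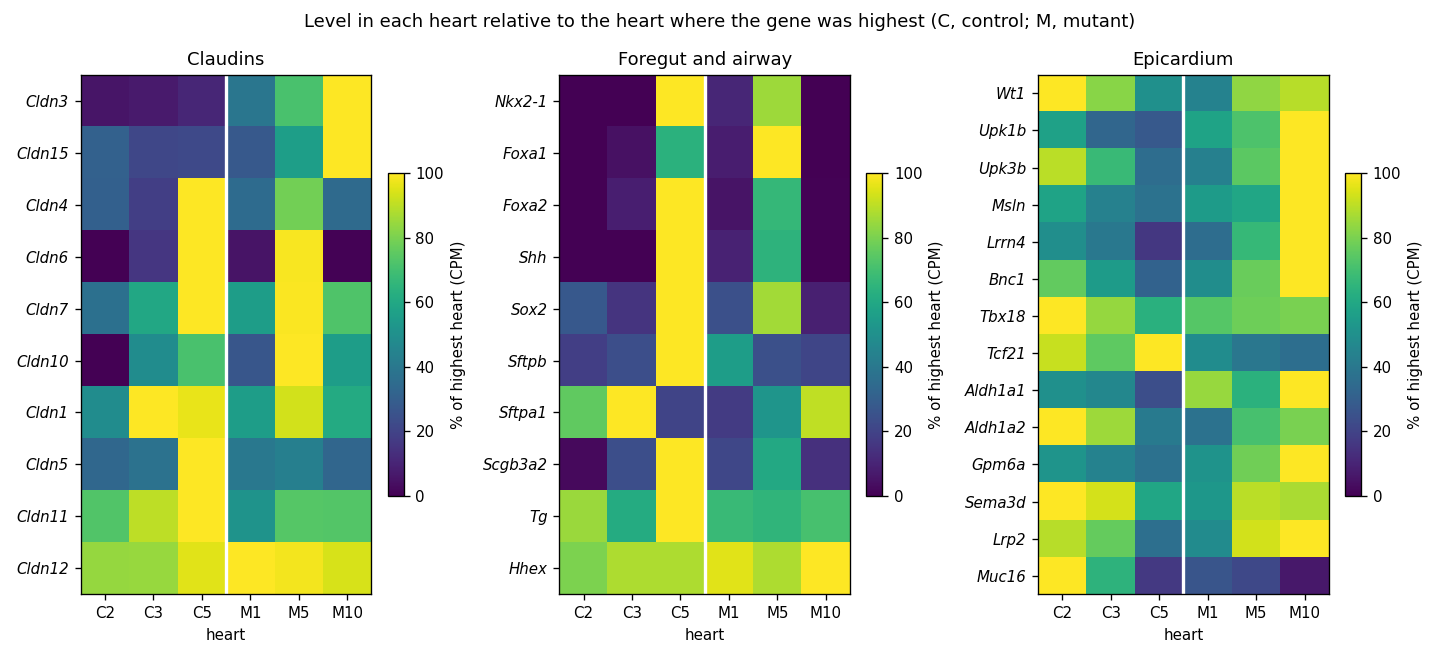
Level of each gene in each heart as a percentage of the heart in which that gene had the highest CPM (colour scale from 0 to 100%), for the 10 claudins, the foregut and airway markers with at least 20 counts in all, and the epicardium markers; C2, C3 and C5 are control hearts and M1, M5 and M10 mutant hearts. Cldn4, Cldn6 and Cldn7 are brightest in both hearts numbered 5, with Nkx2-1 and Foxa2, while Cldn3 and Cldn15 are brightest in mutant replicate 10.

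Cldn15 (chr5:136966616-136975858), which forms cation pores and is best known from the gut, was the claudin nearest to Cldn3 in its pattern. It had 176, 123 and 98 counts in control replicates 2, 3 and 5, against 147, 297 and 510 in mutant replicates 1, 5 and 10. In CPM this was 3.13, 2.14 and 2.23 in controls and 2.83, 5.67 and 10.1 in mutants. Mutant replicate 1 lay below control replicate 2, so the groups overlapped. Its log2 fold change was 1.31 (SE 0.42), and it was 0.77 without mutant replicate 10 and 1.66 without mutant replicate 1. Cldn3 and Cldn15 were both highest in mutant replicate 10 and lowest among mutants in replicate 1. In controls Cldn15 was highest in replicate 2, where Cldn3 was lowest.

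That order of the mutant hearts was also seen for most epicardium and mesothelium markers. Mutant replicate 10 was highest and mutant replicate 1 lowest of the mutants for 10 of 14 of these markers (71.4%), against 16.1% of all genes tested. The control hearts went the other way. Over control replicates 2, 3 and 5, Cldn3 rose (0.906, 1.13 and 1.70 CPM) while the summed markers fell (236, 191 and 138 FPKM). The summed level of the list was 138 to 236 FPKM in controls and 141 to 218 FPKM in mutants, and no marker was at 0 in every heart. Upk3b, a uroplakin of mesothelium and the most abundant of the list over both groups, was at 40.4 FPKM in controls and 44.4 FPKM in mutants (means of 3). Of the 14 markers 8 were higher and 6 lower, with a median log2 fold change of 0.22, and edgeR passed 0, with 6 at an unadjusted p under 0.05 (5.73% of all genes tested) and 2 called by DESeq2 (0.66% of all genes). Those 2 were Tcf21, a transcription factor of epicardium-derived cells (edgeR log2 fold change -1.10, adjusted p = 0.113), and Aldh1a1, an enzyme of retinoic acid synthesis (1.04, adjusted p = 0.578). Gpm6a, a membrane protein, had the next smallest p (0.78, adjusted p = 0.652). For Aldh1a1 and for Upk1b, a uroplakin named after its values were seen, every mutant heart lay above every control heart. That is 2 of the 14, against 6.61% of all genes tested. For Tcf21 every mutant heart lay below (1 of the 14, against 4.59%). The summed markers, which join genes of both directions, overlapped between the groups where Cldn3 did not. The part of these markers in the Cldn3 values was not tested.

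The keratins Krt7, Krt8 and Krt18, filament proteins of epithelia and mesothelium, had positive log2 fold changes, and edgeR called none of them. Krt8 had 1211, 1261 and 562 counts in controls and 1862, 2112 and 2374 counts in mutants, a log2 fold change of 1.13 (SE 0.21) with an adjusted p of 0.273 by edgeR. Krt7 and Krt18 had log2 fold changes of 0.95 and 0.56 (adjusted p = 0.686 and 0.669 by edgeR). These 3 were the members of the epithelial list with the smallest p-values. Of its 15 tested genes 11 were higher and 4 lower, with a median of 0.14, and edgeR passed 0, with 3 at an unadjusted p under 0.05 (5.73% of all genes tested), while DESeq2 called 1, Krt8 (0.66% of all genes). The summed list was at 121 to 144 FPKM in controls and 134 to 187 FPKM in mutants, and its most abundant gene over both groups, the protease inhibitor Spint2, was at 45.3 FPKM in controls and 38.7 FPKM in mutants (means of 3). In mutants the keratin Krt19, named after its values were seen, was higher, at 41.1 FPKM, with 39.4 FPKM in controls and a log2 fold change of 0.10 (adjusted p = 0.990 by edgeR).

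Cldn10 (chr14:118787908-118875489), which forms ion pores in kidney and gland, was barely detected. It had 0, 8 and 9 counts in controls and 4, 15 and 8 counts in mutants, and it did not pass the filter. Its mean level was 0.0802 ± 0.0726 FPKM in controls and 0.120 ± 0.0739 FPKM in mutants. No difference was tested, and a small one could not be seen at this depth. Counting error alone gives a coefficient of variation of 42.0% at the controls' mean count.

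Cldn1 (chr16:26356642-26371841), a claudin of the skin barrier and many epithelia, had 92, 193 and 143 counts in control replicates 2, 3 and 5. It had 97, 164 and 103 counts in mutant replicates 1, 5 and 10. The groups overlapped, with a log2 fold change of -0.22 (SE 0.34) that ranged from -0.50 to -0.05 with each heart left out. Its highest level was in control replicate 3 (3.36 CPM), with control replicate 5 and mutant replicate 5 close to it (3.25 and 3.13 CPM). The remaining hearts were at 1.63 to 2.05 CPM. Control replicate 3 was the heart with hepatocyte transcripts, whose part in the value was not tested. The hepatocyte list summed to 883 FPKM in that heart and to at most 25.0 FPKM in the others.

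Cldn5 (chr16:18776847-18778262), the main claudin of endothelium and of the blood-brain barrier, had 445, 512 and 1042 counts in control replicates 2, 3 and 5. Mutant replicates 1, 5 and 10 had 492, 537 and 393 counts. Control replicate 5 stood far above the other 5 hearts, which lay close together. Cldn5 had a log2 fold change of -0.55 (SE 0.39) with all hearts and 0.13 without control replicate 5, so its direction came from that heart. The endothelium markers, summed, were at 430 FPKM in control replicate 5, within the range of 424 to 526 FPKM over all hearts. Of these 12 markers 10 were higher and 2 lower in mutants, with a median log2 fold change of 0.27. edgeR passed 0, with 1 at an unadjusted p under 0.05 (5.73% of all genes tested). DESeq2 called 0 (0.66% of all genes). Emcn, Erg and Plvap, all genes of endothelial cells, had the smallest p-values, with log2 fold changes of 0.25, 0.28 and 0.30. Egfl7, an angiogenic factor and the marker with the highest mean FPKM over both groups, was highest in control replicate 5 with 109 CPM, as Cldn5 was. It gave 134 of the 430 FPKM summed there, against 58.8 to 86.4 FPKM in the other 5 hearts. Further endothelium markers were named after their values were seen. Sox17 was also highest in control replicate 5, at 7.50 CPM. Pecam1, Cdh5, Kdr, Tek, Tie1, Flt1, Erg and Plvap were each lowest there of all hearts (Pecam1 at 124 against 148 to 199 CPM). Emcn and Sox18 lay between. The long transcripts of Ttn and Tjp1, both chosen after their values were seen, were low in that heart. Ttn, the giant sarcomere protein, was at 395 CPM against 690 to 950 CPM in the other 5 hearts. The junction scaffold Tjp1 was at 72.6 against 122 to 146 CPM. Grhl1, chosen in the same way and longer than Tjp1 (3267 against 3025 bases), was not low there, at 6.29 against 3.40 to 6.56 CPM. With each heart's trend with gene length removed, the log2 fold change of Cldn5 was -0.54.

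Cldn11 (chr3:31149920-31164324), known from myelin and from the Sertoli cells of the testis, had 331, 419 and 356 counts in controls. In mutants it had 216, 313 and 299 counts. In FPKM the lowest control heart (3.19) lay just below the highest mutant heart (3.21), so the groups met. The log2 fold change was -0.40 (SE 0.20), from -0.52 to -0.25 with each heart left out. The Schwann cell and neural crest markers summed to 9.83 to 15.2 FPKM in controls and 9.42 to 11.8 FPKM in mutants. Of these 10 genes 2 were higher and 8 lower, with a median log2 fold change of -0.43. edgeR passed 0, with 1 at an unadjusted p under 0.05 (5.73% of all genes tested). That gene was Prph, a filament protein of peripheral neurons (1.45, SE 0.33, adjusted p = 0.385), which DESeq2 called. Stmn2, also neuronal, followed with a log2 fold change of -0.76, and Erbb3, a receptor of Schwann cells and the most abundant of the list, was at 3.88 and 3.51 FPKM (means of 3).

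Cldn12 (chr5:5489537-5514958), the most abundant member, was also the steadiest. It had 1644, 1686 and 1463 counts in controls and 1803, 1790 and 1642 counts in mutants. The level was 15.8 ± 0.978 FPKM in controls and 17.1 ± 1.18 FPKM in mutants. The log2 fold change was 0.15 (SE 0.10), from 0.12 to 0.21 with each heart left out. Cldn12 varied between hearts by 7.53% (control) and 3.16% (mutant) of its mean CPM, against a counting error of 2.50% and 2.39%. It had the smallest spread of the 10 claudins in both groups.

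The other 25 genes named Cldn followed by a number were mostly near or at 0. Of them, 10 were at 0 in all hearts, and 2 passed the filter. Cldn13, a claudin with a restricted tissue pattern that lies in the Cldn3 and Cldn4 cluster, had 138, 307 and 100 counts in controls and 110, 47 and 149 counts in mutants. Its log2 fold change was -0.76 (SE 0.48, adjusted p = 0.966 by edgeR), and its highest count was in control replicate 3, the heart with hepatocyte transcripts. Cldn34c1 had a log2 fold change of -0.08 and Cldnd1, a claudin-domain protein, of 0.11 (adjusted p = 0.990 and 0.985 by edgeR). Cldn8 and Cldn18, chosen after their values were seen, had 18 and 9 counts in control replicate 5 and 19 and 10 in mutant replicate 5, and at most 1 in the other hearts. They were detected in the same hearts as most of the Cldn6 counts.

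edgeR passed 0 of all genes tested, so its 0 for the genes of proteins with which claudins assemble says nothing particular to them. Of 38 tested junction partners, 27 were higher and 11 lower in mutants, with a median log2 fold change of 0.12 against -0.001 over all genes. edgeR passed 0, with 2 at an unadjusted p under 0.05 (5.73% of all genes tested). DESeq2 called 0 (0.66% of all genes). F11r (JAM-A), an adhesion protein that sits beside claudins at the junction, had 70.8 ± 4.09 CPM in controls and 84.2 ± 6.43 CPM in mutants (SD, n = 3), a log2 fold change of 0.25 (adjusted p = 0.843 by edgeR). Lsr, a component of contacts where 3 cells meet, had a log2 fold change of 0.47 (adjusted p = 0.847 by edgeR). Marveld3, a relative of occludin, had 0.64 (adjusted p = 0.939 by edgeR). For these 3 genes and Tjp3, a scaffold protein, every mutant heart lay above every control heart, which is 4 of the 38, against 6.61% of all genes tested. The summed list overlapped between the groups, at 859 to 1089 FPKM in controls and 1029 to 1087 FPKM in mutants. Its lowest sum was in control replicate 5, the heart in which Ttn and Tjp1 were low.

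The genes whose log2 CPM followed that of Cldn3 most closely over the 6 hearts were Serpinb1a (Pearson r = 0.991), 9030624G23Rik (0.987), Ppp1r14c (0.987), Mbnl1 (0.984) and Tmtc1 (0.982). They lead 14155 genes with a mean of at least 1 CPM, and the 6 points share the difference between the groups and the depth of each library. Serpinb1a, a protease inhibitor, was at 3.23, 3.84 and 4.23 CPM in control replicates 2, 3 and 5, and at 5.56, 6.66 and 7.19 CPM in mutant replicates 1, 5 and 10. Its hearts stood in the same order as those of Cldn3. Mbnl1, a splicing factor, moved over a much smaller range, from 50.5 to 56.0 CPM. A high r therefore went with differences of unlike size.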

How the data were processed

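Whole E13.5 hearts were sequenced, 1 heart per library, from 3 mutant and 3 control embryos. According to the study's methods, the authors mapped trimmed reads to mm10 with STAR and counted them by gene with featureCounts, while the labels name HTSeq. The deposited counts per gene were used without change. The deposited FPKM values equal the count divided by a fixed length per gene and the heart's total count. A table of each group's mean FPKM was not used.

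Differences were fitted to all genes with edgeR 4.0.16 in R 4.3.3 (quasi-likelihood test, TMM scaling, filterByExpr with a count minimum of 10 and a total minimum of 15, two-sided, no covariates, Benjamini-Hochberg adjusted p under 0.05). The scripts were tested on simulated counts. DESeq2 1.42.0, limma 3.58.1 (on log2 of FPKM plus 1 or 0.1, and on counts), other scalings and filters, and leaving out each heart were alternatives. The members, the lists (other claudins, junction partners, and markers of epithelium, foregut and airway, epicardium, endothelium, cardiomyocytes, hepatocytes and Schwann cells) and the rules were chosen with earlier results of these data known. All 10 members are named, with claudins outside the list that passed the filter, the 3 genes of smallest p in each other list, and the most abundant marker. Of the Schwann cell list, 1 gene that the rule names is not reported here. Other genes named were the filtered neighbours at the ends of the range or with groups apart, the 5 genes most like Cldn3, and those said to be chosen after their values were seen. The labels do not say whether embryos came from separate litters, so p-values measure the spread between these hearts. Reads carry no molecular identifiers, so limits from 3 counts cover counting error only. Positions are from GENCODE M21 (GRCm38) and promoters from RefSeq (GRCm38.p6).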

Additional observations from a re-analysis of the deposited data

How the results depend on the processing

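The number of genes past the threshold was 0 with edgeR and 132 with DESeq2, 34 without the low-count filter and 6 with each heart's trend with gene length removed, and the causes of these differences were not tested. With each heart left out in turn it was between 0 and 44, the 44 without control replicate 5, and without both hearts numbered 5 (chosen after seeing the data) it was 9. The log2 fold change of Cldn3 was positive in all 16 alternatives, and moved by more than the spread between replicates in 1, limma on log2(FPKM + 1), where it was 2.21. That scale understates changes of low genes by construction. Cldn4, Cldn5 and Cldn6 each moved in 1 alternative, as a heart numbered 5 was left out. No setting passed a junction partner or another claudin, but most settings passed 0 genes of any kind. The level order of the controls was the same with scaled CPM per length, and Cldn6 and Cldn4 changed places in the mutants. Cldn10 is limited by its few counts. Cldn6 is limited by its spread between hearts, 139% (control) and 159% (mutant) of its mean CPM, against a counting error of 12.9% and 12.7%. No paired analysis was possible because the labels do not pair hearts across groups.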
